A study of Mus musculus with 29 samples.

Results

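Mrc1, Cd163, Stab1, Lyve1, Pf4, F13a1, Cbr2 and Ms4a7 are 8 marker genes of border-associated macrophages, and their RNA was followed in ribosome pulldowns and unfractionated RNA of the mouse brain. They were chosen by gene symbol, with earlier results of these data known, so counts of them that passed a test are a description. Each symbol matched 1 row of the 36172 gene rows in the deposited matrix, so all 8 genes are accounted for. Border-associated macrophages live in the meninges, the perivascular spaces and the choroid plexus, while microglia occupy the brain parenchyma. Both are tissue macrophages that express Cx3cr1, and border-associated macrophages are known for scavenger receptors and for low levels of the homeostatic microglial genes. Several of the 8 genes are also known from other cells, among them Pf4 from platelets, and Lyve1 and Stab1 from lymphatic or sinusoidal endothelium.

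The NuTRAP reporter, once recombined by Cre, tags ribosomes with EGFP and the nuclear envelope with biotin and mCherry. It was combined with a tamoxifen-inducible Cre, driven by Aldh1l1 in astrocytes (Aldh1l1-cre/ERT2+; NuTRAP+, 3 mice) or by Cx3cr1 in microglia (Cx3cr1-cre/ERT2+; NuTRAP+, 6 mice). All mice were about 3 months old, carried NuTRAP and had received tamoxifen. Cx3cr1 also drives Cre outside microglia, in border-associated macrophages and monocytes. Per the study, collection of Cx3cr1-NuTRAP brains was delayed by weeks after tamoxifen, to avoid labelled monocytes of the blood. Aldh1l1-NuTRAP brains for cytometry and imaging were taken a week after tamoxifen. From each half-brain homogenate, RNA bound to EGFP-tagged ribosomes gave the positive fraction and unbound RNA the negative fraction, and the cleared homogenate itself was the input. The libraries were 3 positive and 3 negative fractions of Aldh1l1-NuTRAP mice, 6 each of positive fraction, negative fraction and input of Cx3cr1-NuTRAP mice, and 5 whole-tissue preparations of the latter line (mouse 155 had none), 29 in all. Fractions with the same mouse number came from the same animal. Line, Cre driver and any difference in the interval after tamoxifen cannot be told apart.

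Total counts per library were 8782235 to 26857866, apart from the whole tissue of mouse 210 with 4260949, so 3 counts, the floor used for a gene that was not detected, corresponded to a higher level there than elsewhere. Levels are given in CPM, the count of a gene per 1000000 counts of its library. The pan-macrophage list (15 genes such as Csf1r and C1qa) summed to 5032 ± 1670 CPM in the microglial pulldown (the Cx3cr1-NuTRAP positive fraction) and 417.5 ± 16.1 CPM before the pulldown (SD, n = 6 each). RNA of other cells remained in this pulldown. Its neuron, oligodendrocyte and astrocyte lists summed to 5214 ± 901, 2531 ± 720 and 1148 ± 159 CPM (SD, n = 6 each). In the input they summed to 6012 ± 138, 4271 ± 237 and 1819 ± 101 CPM (SD, n = 6 each). The astrocyte list summed to 8914 ± 1678 CPM in the astrocyte pulldown (the Aldh1l1-NuTRAP positive fraction) and 1315 ± 90.6 in its negative fraction (SD, n = 3 each). In whole brain, fewer cells of a type and less RNA per cell cannot be told apart in any of the levels that follow.

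The Cx3cr1-NuTRAP positive fraction held the highest mean level of each of the 8 genes among the 6 groups, and the Aldh1l1-NuTRAP positive fraction the lowest. Their summed level was 259.5 ± 119 CPM in the former and 8.70 ± 0.79 CPM in the latter (SD, n = 6 and n = 3). The sums of the remaining groups lay close together, at 29.4 ± 3.38 CPM in the Aldh1l1-NuTRAP negative fraction (SD, n = 3), 31.9 ± 5.45 in the Cx3cr1-NuTRAP negative fraction, 35.4 ± 7.61 in the input (SD, n = 6 each) and 33.8 ± 6.12 in whole tissue (SD, n = 5). The pulldowns of the 2 lines did not overlap for 8 of the 8 genes, in a comparison where 42.0% of all genes tested lay higher in the microglial one without overlap and 33.1% passed as higher by edgeR. Microglial pulldown and input did not overlap for 7 genes (10.0% of all genes tested lay higher without overlap and 23.3% passed as higher), and the exception, Cbr2, overlapped through mouse 194 alone. Stab1 made up 52.9% of the summed level in the microglial pulldown, and Ms4a7 1.99%.

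**Figure D1:**
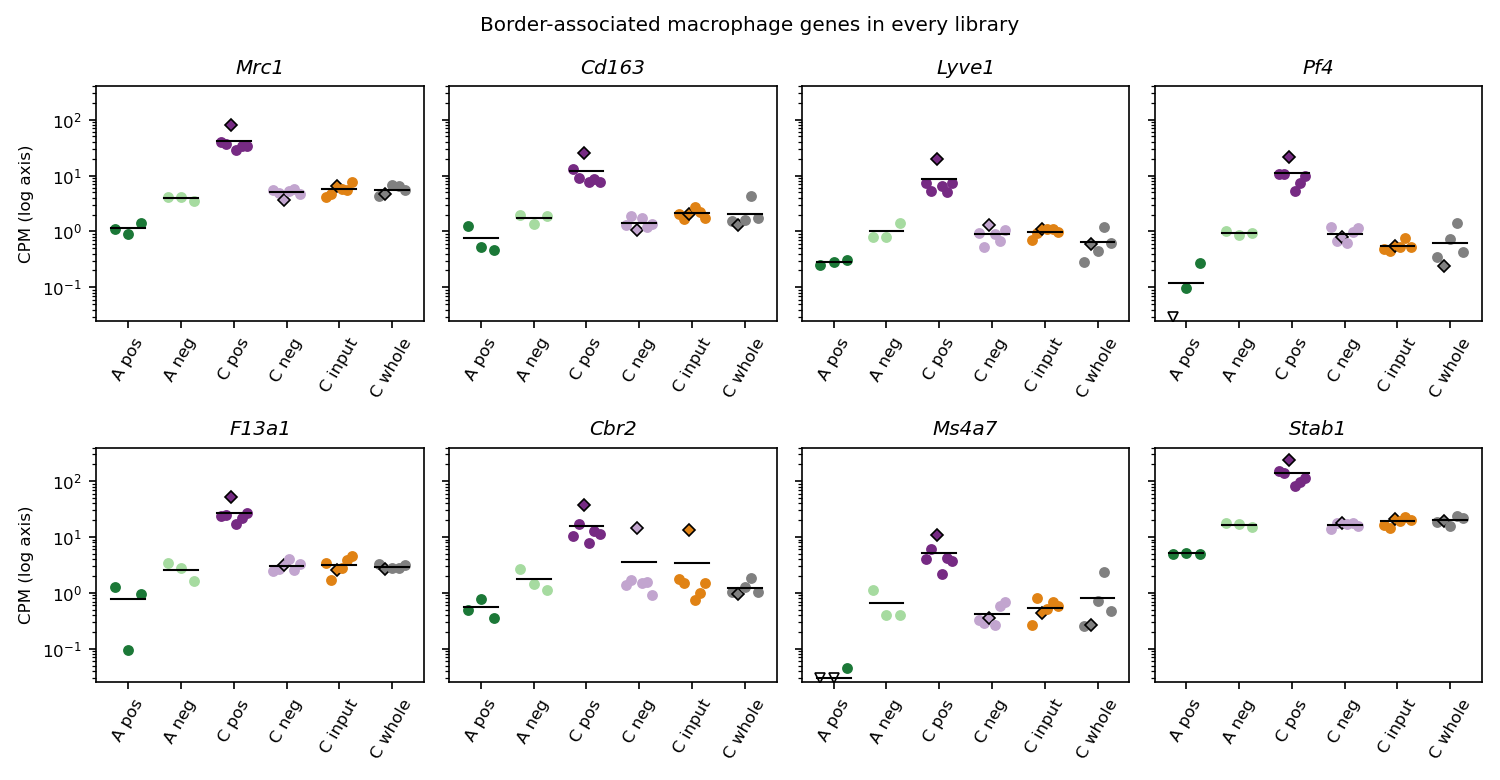
Level of each of the 8 genes in every library, in CPM on a log axis. Points are libraries, bars are group means, diamonds with a black outline are the libraries of mouse 194, open triangles at the base are libraries with no count, A stands for Aldh1l1-NuTRAP and C for Cx3cr1-NuTRAP. The purple points of the Cx3cr1-NuTRAP positive fraction lie above the other groups in every panel, except that mouse 194 raises the negative fraction and input of Cbr2 (14.7 and 13.6 CPM) and mouse 210 the whole tissue of Ms4a7 (2.35 CPM).

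Because longer transcripts give more counts, levels were compared between genes per kilobase of exon. In the Cx3cr1-NuTRAP positive fraction, Pf4 had the highest level with 15.1 ± 7.87 CPM per kb, followed by Stab1 with 13.3 ± 5.62 and Cbr2 with 12.1 ± 7.99 (SD, n = 6 each). These neighbours did not differ beyond their spread: Pf4 was above Stab1 in 5 of 6 mice, with a mean log2 ratio per kb of 0.13 ± 0.17, and Stab1 above Cbr2 in 4 of 6, with one of 0.24 ± 0.41 (SD, n = 6 each). Below them the order was Mrc1 (6.64 CPM per kb), F13a1 (4.07), Lyve1 (2.94), Cd163 (2.19) and Ms4a7 (1.16), and each step of this lower part held within 6 of 6 mice.

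The start-site regions of the genes are shown because the genes rose in the same fraction, and letters known from macrophage regulators can be looked for in them. RefSeq gave 300-base windows (build GRCm38.p6, reading toward the gene) for 7 of the 8 genes, F13a1 and Ms4a7 with 2 windows each, 9 in all. The letters GAGGAA, the core of the site of the macrophage factor PU.1, were found on either strand in 7 of the 9 windows, and in 28.3% of all 32851 windows of the table. Both windows of F13a1 held them, while the window of Cd163 and the Ms4a7 window that starts at 11334646 did not. TGCTGA, a half-site of MAF factors, was found in 2 of the 9 (Cbr2 and Stab1) and in 19.5% of all windows, and the TATA box letters TATAAA in 0 of the 9 and in 13.6% of all. No match of one motif overlapped a match of another in these windows. The windows printed are that of the gene with the largest log2 fold change against input and those of the 2 genes with the highest counts, with matches in capitals.
Pf4: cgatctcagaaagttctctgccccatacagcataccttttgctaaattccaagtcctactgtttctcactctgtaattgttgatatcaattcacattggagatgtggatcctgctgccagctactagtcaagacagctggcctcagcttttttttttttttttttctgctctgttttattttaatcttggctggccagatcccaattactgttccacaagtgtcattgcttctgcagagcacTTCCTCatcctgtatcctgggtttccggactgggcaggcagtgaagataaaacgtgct
Mrc1: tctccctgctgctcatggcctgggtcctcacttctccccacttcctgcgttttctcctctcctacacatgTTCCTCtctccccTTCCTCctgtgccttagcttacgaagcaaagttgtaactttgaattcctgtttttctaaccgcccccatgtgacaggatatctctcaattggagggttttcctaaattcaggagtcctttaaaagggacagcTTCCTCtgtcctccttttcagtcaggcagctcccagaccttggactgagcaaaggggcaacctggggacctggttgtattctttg
Stab1: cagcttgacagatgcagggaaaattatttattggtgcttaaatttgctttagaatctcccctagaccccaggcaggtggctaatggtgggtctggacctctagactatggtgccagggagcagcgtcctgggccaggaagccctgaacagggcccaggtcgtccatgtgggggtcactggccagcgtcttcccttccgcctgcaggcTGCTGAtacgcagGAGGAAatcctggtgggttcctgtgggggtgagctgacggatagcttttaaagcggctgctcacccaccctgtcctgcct
They lie at chr5:90772185-90772484 (plus strand), chr2:14229164-14229463 (plus strand) and chr14:31168592-31168891 (minus strand). The match in Pf4 begins at position -8 from the start site on the opposite strand, those in Mrc1 at -180, -167 and -35 on the opposite strand, and those in Stab1 at -43 (TGCTGA) and -30 (GAGGAA) on the same strand. A match of letters is a description and does not show that a factor binds.

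Mrc1, Stab1, Cd163 and Lyve1 encode endocytic or scavenger receptors. Mrc1 (Entrez 17533, chromosome 2 of mm10, 14229414 to 14332023) encodes the mannose receptor CD206, which takes up mannosylated glycoproteins. It had 28.3 CPM in the lowest, 35.5 in the median and 81.6 in the highest Cx3cr1-NuTRAP positive fraction. In the inputs it had 4.20, 5.55 and 7.55 CPM (lowest, median and highest), and in the negative fractions 3.65, 5.17 and 5.81. No positive fraction of this line came near the range of the unbound or unfractionated RNA. Whole tissue gave 4.33, 4.60, 6.80, 6.57 and 5.42 CPM in mice 192, 194, 209, 210 and 277. In the Aldh1l1-NuTRAP mice 290, 293 and 294, Mrc1 had 4.21, 4.16 and 3.57 CPM in the negative fraction and 1.09, 0.905 and 1.43 CPM in the positive fraction, again without overlap.

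Stab1 (Entrez 192187, chromosome 14, 31139017 to 31168641) encodes stabilin-1, a scavenger receptor for modified lipoproteins and matrix fragments. Its level was 82.1, 126 and 243 CPM in the lowest, median and highest Cx3cr1-NuTRAP positive fraction, against 14.7, 19.6 and 23.0 in the inputs and 13.8, 17.2 and 17.9 in the negative fractions. Whole tissue held 18.9, 19.3, 15.8, 23.6 and 21.8 CPM in mice 192, 194, 209, 210 and 277. The astrocyte pulldown carried 5.07, 5.18 and 4.97 CPM in mice 290, 293 and 294, and the matching negative fractions 17.6, 17.3 and 15.2. Stab1 was the best counted of the 8 genes, and its lowest count in a library was 60.

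Cd163 (Entrez 93671, chromosome 6, 124304651 to 124330527) encodes the receptor for haptoglobin-haemoglobin complexes. It had 7.53, 8.81 and 25.7 CPM in the lowest, median and highest Cx3cr1-NuTRAP positive fraction, 1.64, 2.07 and 2.78 in the inputs and 1.04, 1.33 and 1.86 in the negative fractions. In whole tissue, 4 mice lay between 1.32 and 1.74 CPM, and mouse 210 had 4.23 CPM from 18 counts. Lyve1 (Entrez 114332, chromosome 7, 110850607 to 110862953), the hyaluronan receptor of lymphatic vessels and of a subset of border-associated macrophages, had 5.12, 7.01 and 19.6 CPM in the positive fractions, 0.715, 1.03 and 1.12 in the inputs and 0.525, 0.914 and 1.28 in the negative fractions. Neither gene overlapped between the positive fraction and any other Cx3cr1-NuTRAP group.

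Pf4 and F13a1 encode secreted or extracellularly acting proteins. Pf4 (Entrez 56744, chromosome 5, 90772435 to 90773383) encodes the chemokine platelet factor 4. It had 5.27, 10.1 and 21.7 CPM in the lowest, median and highest Cx3cr1-NuTRAP positive fraction, 0.444, 0.526 and 0.775 in the inputs and 0.617, 0.895 and 1.20 in the negative fractions. The inputs rested on only 10 to 20 counts each. In the Aldh1l1-NuTRAP positive fraction, Pf4 had 0, 0.0952 and 0.269 CPM in mice 290, 293 and 294, that is at most 6 counts, and 1.02, 0.875 and 0.952 CPM in the negative fraction. F13a1 (Entrez 74145, chromosome 13, 36867178 to 37050244), the catalytic subunit of coagulation factor XIII, had 17.2, 23.9 and 51.4 CPM in the Cx3cr1-NuTRAP positive fractions, 1.69, 3.11 and 4.61 in the inputs and 2.46, 2.92 and 4.01 in the negative fractions.

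Cbr2 and Ms4a7 are the remaining 2 genes. Cbr2 (Entrez 12409, chromosome 11, 120729485 to 120732021) encodes a carbonyl reductase. It had 7.81, 12.2 and 36.8 CPM in the lowest, median and highest Cx3cr1-NuTRAP positive fraction. In 5 of the 6 inputs it lay between 0.747 and 1.81 CPM, while mouse 194 had 13.6, and in 5 of the 6 negative fractions between 0.901 and 1.72 CPM, while mouse 194 had 14.7. Ms4a7 (Entrez 109225, chromosome 19, 11321039 to 11336146) encodes a membrane protein of the MS4A family and separates border-associated macrophages from microglia. It had the lowest mean of the 8 genes in the positive fraction, with 2.18, 4.08 and 10.8 CPM in the lowest, median and highest library, 0.268, 0.543 and 0.800 in the inputs and 0.264, 0.344 and 0.676 in the negative fractions. In whole tissue it reached 2.35 CPM in mouse 210 from 10 counts, above the lowest positive fraction, and lay between 0.258 and 0.704 CPM in the other mice.

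Relative to the input, all 8 genes rose in the Cx3cr1-NuTRAP positive fraction. Many other genes moved, since 23.3% of the 13838 genes tested rose and 25.6% fell in this comparison, at an adjusted p under 0.05 (edgeR quasi-likelihood test). Pf4 changed most, with 4.30 on the log2 scale (adjusted p = 2.52e-07, standard error 0.34), which was the largest of all genes tested in this fit. Ms4a7, F13a1 and Lyve1 followed with 3.23, 3.13 and 3.13, then Mrc1 with 2.92, Stab1 with 2.87, Cd163 with 2.53 and Cbr2 with 2.34 (standard error 0.68, adjusted p = 0.013). The first 7 of these had adjusted p values of at most 2.41e-05. The median of the 8 was 3.02 and that of all genes tested 0.00 after rounding (-0.0027). Each of the 8 genes was higher in 6 of 6 mice, with the smallest ratio of a single mouse in Cbr2 of mouse 194 (log2 ratio 1.43) and the largest in Pf4 (5.06). Only 4 genes (Mrc1, Cd163, F13a1 and Stab1) had more than 20 counts in every input, and Lyve1, Pf4, Cbr2 and Ms4a7 entered the test through the positive fraction alone, so that their passing carries less weight. The 4 well counted genes had 2.53 to 3.13.

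The positive fraction was also compared with the negative fraction and with whole tissue, which reuses the same positive libraries. The same 4 genes had more than 20 counts in every negative fraction, and 2 (Mrc1 and Stab1) in every whole-tissue library. Against the negative fraction, 8 of 8 genes rose (12.8% of all genes tested did), with log2 fold changes of 3.64 for Ms4a7, 3.61 for Pf4, 3.29 for Lyve1, 3.21 for F13a1, 3.12 for Mrc1, 3.11 for Cd163 and 3.08 for Stab1, each with an adjusted p of at most 1.08e-05. Cbr2 had 2.16 (adjusted p = 0.0262), and its call did not hold without any one of mice 155, 192, 210 and 277 (2.03 to 2.10, adjusted p = 0.0508 to 0.0991), nor without a filter on low counts (2.16, adjusted p = 0.0908). Against whole tissue, 8 of 8 genes rose as well (27.5% of all genes tested did). The log2 fold changes there were 4.49 for Pf4, 4.01 for Lyve1, 3.84 for Cbr2, 3.25 for F13a1, 3.20 for Ms4a7, 3.00 for Mrc1, 2.83 for Stab1 and 2.75 for Cd163, with adjusted p values of at most 0.000429.

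**Figure D2:**
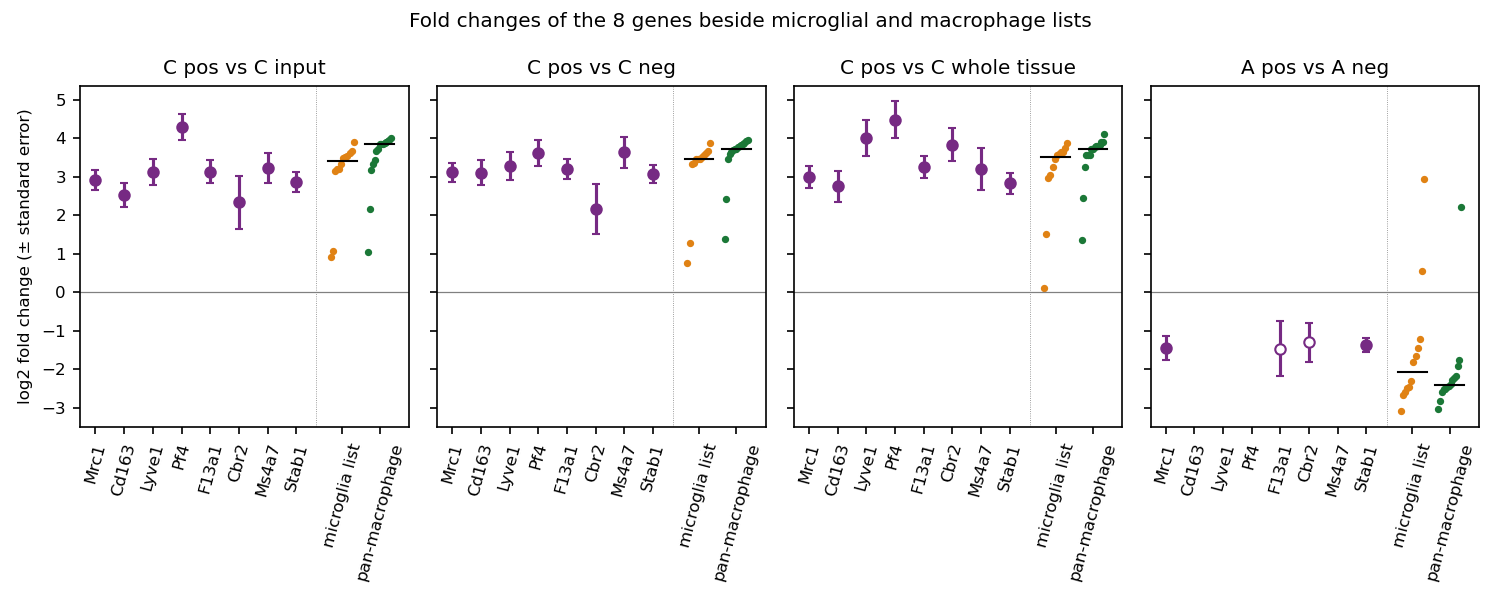
Log2 fold changes (vertical axis, with standard errors) of the 8 genes in 4 comparisons, beside the genes of the homeostatic microglia list (orange) and the pan-macrophage list (green) with their medians as black bars. Of the 8 genes (purple), filled points passed an adjusted p under 0.05, open points did not, and those too low to be tested have no point. List genes have no error bars. Against input, negative fraction and whole tissue of the Cx3cr1-NuTRAP mice (C) the 8 genes lie between 2.16 and 4.49, and in the Aldh1l1-NuTRAP mice (A) the 4 genes tested lie between -1.46 and -1.30.

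Between the unbound and unfractionated RNA of the Cx3cr1-NuTRAP mice, Mrc1, Cd163, F13a1 and Stab1 had enough counts to be tested, and their differences were small beside those in the pulldown. Of these, 0 passed between negative fraction and input by edgeR and 0 by DESeq2, with 1 at an unadjusted p under 0.05, while 6.11% of all genes passed. Cd163 had the largest difference, -0.57 (standard error 0.18, adjusted p = 0.0685), and with the mouse as a block, which called 37.2% of all genes, it passed (-0.56, adjusted p = 0.0283). The differences of Stab1, Mrc1 and F13a1 were -0.19, -0.18 and -0.06, with adjusted p values of 0.199 to 0.876. Between input and whole tissue, 0 of the 4 passed by either tool and 0 had an unadjusted p under 0.05, at differences from -0.04 (Stab1) to 0.22 (Cd163), while 30.5% of all genes passed.

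The astrocyte pulldown held less of these genes than the RNA left behind. In each of the 3 Aldh1l1-NuTRAP mice, each of the 8 genes had a lower level in the positive than in the negative fraction. Mrc1, Stab1, F13a1 and Cbr2 could be tested. Mrc1 fell by 1.44 on the log2 scale (standard error 0.30, adjusted p = 0.00571) and Stab1 by 1.37 (standard error 0.18, adjusted p = 0.000763), 2 of the 4 by edgeR (24.8% of all genes tested fell and 26.8% rose), and 3 of the 4 did by DESeq2 (28.2% of all genes), with Cbr2 as the third (-1.36, adjusted p = 0.0434). Stab1 was the only one of the 4 above 20 counts in every positive fraction. Mrc1, F13a1 and Cbr2 entered the test through the negative fraction, where they were high, so the count is a description. F13a1 and Cbr2 had -1.46 (adjusted p = 0.124) and -1.30 (adjusted p = 0.0652). With the mouse as a block, which called 33.8% of all genes lower, 4 of the 4 fell (F13a1 -1.55, adjusted p = 0.0296, Cbr2 -1.23, adjusted p = 0.0289). Without mouse 293, where only 12.6% of all genes were lower, Stab1 alone fell (Mrc1 -1.27, adjusted p = 0.0876). F13a1 was uneven among the pulldowns, with 0.0952 CPM in mouse 293 against 1.27 and 0.947 in mice 290 and 294. Ms4a7 had 0, 0 and 1 count in the 3 astrocyte pulldowns, and 1.14, 0.401 and 0.404 CPM in the negative fractions.

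Set directly against the astrocyte pulldown, all 8 genes were higher in the microglial pulldown (33.1% of all genes tested were), although Stab1 alone had more than 20 counts in every astrocyte pulldown. The log2 fold changes ran from 3.80 for Cd163 to 5.91 for Pf4 among the 7 genes other than Ms4a7, with adjusted p values of at most 0.000193. The value of Pf4 rests on few counts in the astrocyte pulldowns, and it was 7.06 without mouse 294 and 5.56 without mouse 290. Ms4a7, at or under 3 counts in each astrocyte pulldown, was at least 29.2-fold higher, taking 3 counts per library as its level there. Between the negative fractions of the 2 lines, 0 of the 5 genes tested passed by edgeR, 0 by DESeq2, which gave no adjusted p for Cbr2, and 0 had an unadjusted p under 0.05 (0.25% of all genes passed). Their differences ran from -0.29 (Cd163) to 1.10 (Cbr2), and Cbr2 had -0.28 without mouse 194. One model with an interaction term compared the positive-to-negative ratio between the lines, and the ratio was higher in the Cx3cr1-NuTRAP mice for 8 of 8 genes (29.9% of all genes tested). Lyve1, Pf4 and Ms4a7 entered that fit through the Cx3cr1-NuTRAP positive fraction alone. The difference of the log2 ratios was 3.49 for Cbr2 (adjusted p = 0.0247) and 4.10 to 6.01 for Cd163, Stab1, Mrc1, F13a1, Lyve1 and Pf4. With each mouse left out in turn, Pf4 lay between 5.58 and 7.16, highest without mouse 294. For Ms4a7 it was at least 5.51, a ratio of ratios of 45.6, with 3 counts as its level in the astrocyte pulldown. The call for Cbr2 was lost without any one of the 3 Aldh1l1-NuTRAP mice (3.09 to 3.98, adjusted p = 0.0563 to 0.121) and without a filter on low counts (3.43, adjusted p = 0.0604).

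The next question was whether the 8 genes rose more or less than microglial genes in the same pulldown. Microglial reference genes rose against the input with a median of 3.42 (12 of 12 rose), for example Selplg, the P-selectin ligand, by 3.68, but Sparc, a matrix protein also made by astrocytes, by 0.91. The pan-macrophage list rose by a median of 3.84 (15 of 15). When each library was scaled by the geometric mean of the 12 reference genes in place of its total composition, a positive value means a rise above the reference. On this scale Pf4 was higher by 1.20 (standard error 0.25, adjusted p = 4.13e-05) and Cd163 lower by 0.58 (-0.58, standard error 0.23, adjusted p = 0.0179). The other 6 genes lay between -0.89 (Cbr2) and 0.12 (Ms4a7) and did not pass. On the same scale 0.47% of all genes were higher and 98.1% lower.

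This comparison depended on the reference. Sparc had 4382 ± 318 CPM in the astrocyte pulldown (SD, n = 3), above its 1277 ± 159 in the microglial one (SD, n = 6), and Sall1 rose by 1.07 against the input. Without Sparc and Sall1 in the reference, an alternative chosen after their values were seen, Pf4 stayed higher (0.79, adjusted p = 0.00436), while Cd163 (-0.99), Stab1 (-0.63) and Mrc1 (-0.57) were lower, with adjusted p values of at most 0.00829. The pan-macrophage reference gave Pf4 0.80 (adjusted p = 0.00318) and the same 3 genes lower. With either of these references 98.6% of all genes were lower. With the microglia list that the study took from cell sorting, without the 8 genes, 6 were higher and 0 lower, Pf4 by 1.86, while 1.45% of all genes were higher and 97.1% lower. Pf4 was above each of the 4 references against the input, where it had 10 to 20 counts a library and entered the fit through the positive fraction alone. For 6 of the other genes the direction turned with the reference. Cbr2 was below each of the 4 without passing, and on the scale of the 12 genes it was at 0.36 without mouse 194 (adjusted p = 0.15). The call for Cd163 did not hold without mouse 209 or mouse 210 (-0.48 and -0.54, adjusted p = 0.0779 and 0.0589).

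Against the negative fraction on the reference scale, 0 of the 8 genes passed and 0 had an unadjusted p under 0.05 (98.4% of all genes passed). This too turned with the reference, since Mrc1 and Stab1 were lower without Sparc and Sall1 (-0.44 and -0.49) and with the pan-macrophage list (-0.43 and -0.47), where 98.6% of all genes were lower, and 7 genes were higher with the sorted-cell list, where 1.38% of all genes were. Pf4 had 0.44 (standard error 0.25, adjusted p = 0.0893) and Ms4a7 0.46 (standard error 0.30, adjusted p = 0.136) there. The larger value of Pf4 against the input went with its input level, 0.553 ± 0.12 CPM, which was below the 0.908 ± 0.25 CPM of the negative fraction (SD, n = 6 each). In the Aldh1l1-NuTRAP mice, 0 of the 4 genes tested passed on the reference scale and 0 had an unadjusted p under 0.05, at values from 0.07 (F13a1) to 0.28 (Cbr2), with 72.4% of all genes passing. The values were 0.72 (F13a1) to 0.95 (Cbr2) without Sparc and Sall1 and -0.56 (F13a1) to -0.33 (Cbr2) with the sorted-cell list. With either, 0 of the 4 passed, while 85.9% and 61.6% of all genes did, in that order. These reference-scaled fits were not run with DESeq2.

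**Figure D3:**
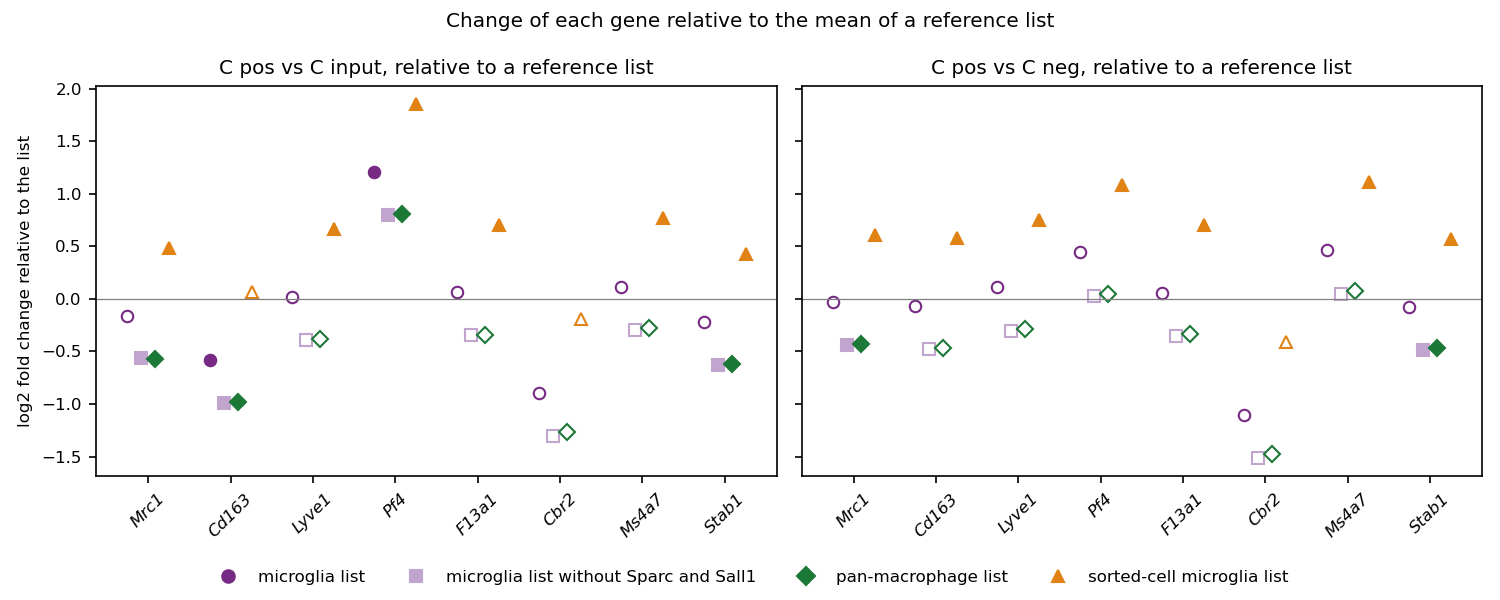
Log2 fold change of each of the 8 genes in the Cx3cr1-NuTRAP positive fraction relative to the mean of a reference list, against input (left) and negative fraction (right). Each symbol is 1 reference list, filled where the adjusted p was under 0.05. Pf4 lies above 0 with each of the 4 lists against input (0.79 to 1.86), and most other genes change sides with the list.

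As a measure free of a fit, the summed level of the 8 genes was divided by the summed level of the pan-macrophage list in each library. It was 5.03 ± 0.60% in the Cx3cr1-NuTRAP positive fraction (lowest 4.54%, highest 6.00%), 8.54 ± 2.11% in the input and 7.94 ± 1.71% in the negative fraction (SD, n = 6 each). Whole tissue had 7.92 ± 0.40% (SD, n = 5), and the Aldh1l1-NuTRAP positive and negative fractions 6.03 ± 1.15% and 7.14 ± 0.28% (SD, n = 3 each). Mertk, a receptor tyrosine kinase of the list that astrocytes also express, rose by 2.22 in the astrocyte pulldown and made up 86.2 of its 146 CPM. Without Mertk, left out after its values were seen, the share in the Aldh1l1-NuTRAP mice turned around, to 17.1 ± 6.59% in the positive and 7.60 ± 0.47% in the negative fraction (SD, n = 3 each), so their shares are not compared further. In the Cx3cr1-NuTRAP mice it was then 5.09 ± 0.61% in the positive fraction, 9.20 ± 2.30% in the input and 8.45 ± 1.89% in the negative fraction (SD, n = 6 each). With Mertk, the range of the Cx3cr1-NuTRAP positive fraction lay below that of each of its other groups, with 6.00% as its highest and 6.24% as the lowest value elsewhere. Without Cbr2, the shares were 4.73 ± 0.56%, 7.70 ± 1.22% and 7.01 ± 0.63% for the positive fraction, the input and the negative fraction, in that order. Stab1 and Mrc1, the 2 most abundant genes, weigh most in these shares, and Pf4 alone had 0.207 ± 0.037% of the pan-macrophage sum after the pulldown, above the 0.132 ± 0.026% of the input but not above the 0.223 ± 0.053% of the negative fraction (SD, n = 6 each).

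**Figure D4:**
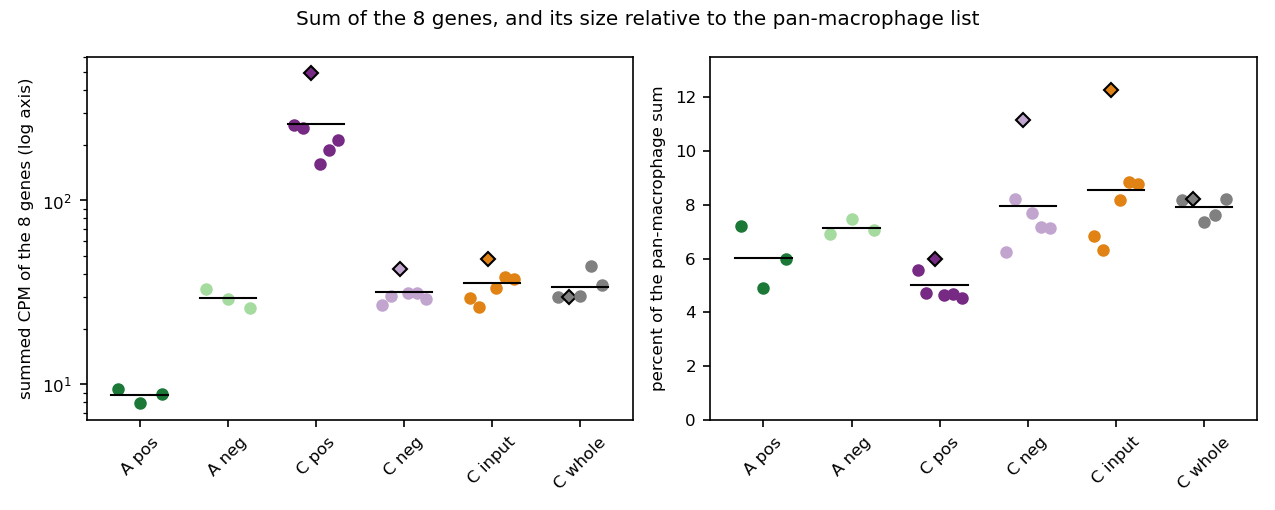
Summed level of the 8 genes in each library (left, CPM on a log axis) and the same sum as a percent of the pan-macrophage list (right). Points are libraries, bars are means and diamonds are mouse 194. The positive fraction of the Cx3cr1-NuTRAP mice is the highest group on the left and lies at 4.54 to 6.00% on the right, below the inputs (6.31 to 12.3%).

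Mouse 194 stood out among the Cx3cr1-NuTRAP positive fractions. It had the highest level of each of the 8 genes, 2.10 times the mean of the other 5 mice for Stab1 and 3.09 times for Cbr2. Its pan-macrophage sum was also the highest, 8183 CPM against 3384 to 5249 in the other mice, and after division by that sum the coefficient of variation over the 6 mice, 42.2% to 66.0% for the 8 genes in CPM, was 10.7% to 30.1%. The part of this library in each result was measured by leaving the mouse out. Against the input the 8 genes then had log2 fold changes of 2.17 (Cd163) to 4.00 (Pf4), and 8 of 8 still rose (22.9% of all genes tested did).

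Cbr2 was the exception to that pattern. Without mouse 194 its log2 fold change against the input was larger, 3.23 (adjusted p = 5.63e-07), and against the negative fraction 3.10 (adjusted p = 7.16e-07), where mouse 194 had 366 counts in the negative fraction and the other mice 20 to 38. Its whole tissue held 24 counts of Cbr2, 0.959 CPM, within the range of the other mice. A search made after these values were seen found 19 genes that were more than 5-fold above every other Cx3cr1-NuTRAP input, negative fraction and whole-tissue library in both the input and the negative fraction of mouse 194. Cbr2 was 1 of the 19, and no other of the 8 genes was among them. The other 18 include Cyp2a5 and Cyp2g1, cytochrome P450 enzymes of the olfactory mucosa, Cnga2, a channel subunit of olfactory sensory neurons, and Bpifb3 and Bpifb4.

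The 18 genes summed to 256 CPM in the input, 275 in the negative fraction and 228 in the positive fraction of mouse 194. In the other mice they summed to 3.33 to 10.6 CPM in the inputs, 3.69 to 14.8 in the negative fractions and 3.05 to 11.8 in the positive fractions. In the whole tissue of mouse 194 they summed to 3.08 CPM, and the highest whole-tissue value was 24.4 CPM, in mouse 210. The search itself set that these genes were high with Cbr2 in the input and negative fraction. In the positive fraction of mouse 194, Cbr2 was 3.09 times the mean of the other mice, near the 3.08 of Lyve1, and their part in the Cbr2 level was not tested. Leaving that mouse out, Cbr2 had 11.9 ± 3.41 CPM in the positive fraction, against 1.32 ± 0.43 in the inputs and 1.41 ± 0.31 in the negative fraction (SD, n = 5 each), and these groups no longer overlapped.

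**Figure D5:**
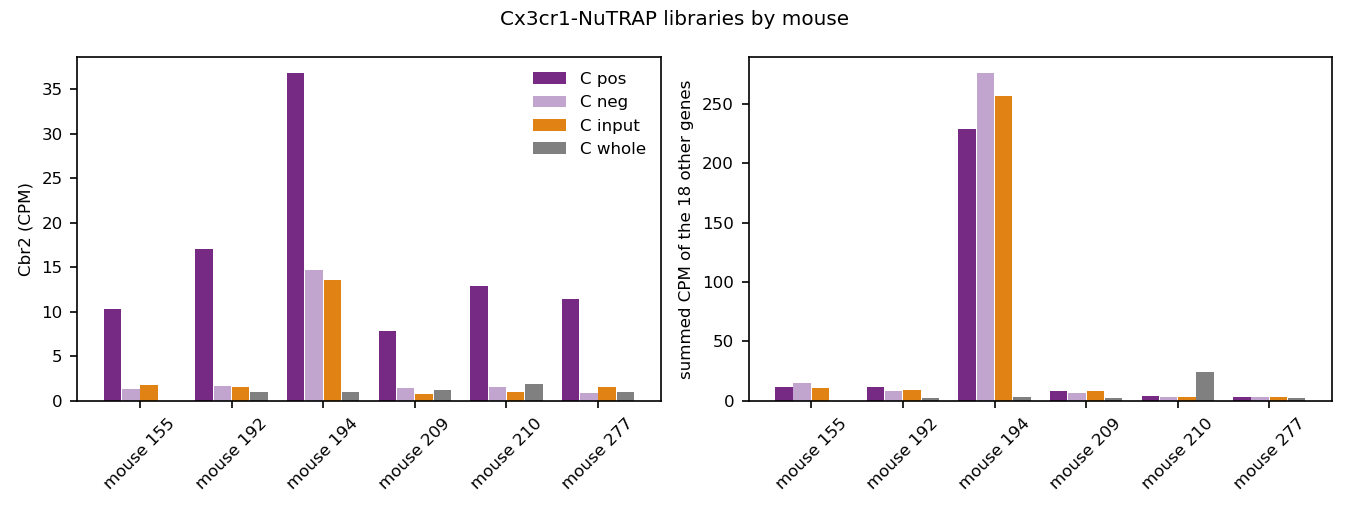
Level of Cbr2 (left) and summed level of the 18 other genes (right), in CPM, for each Cx3cr1-NuTRAP mouse, with bars for positive fraction, negative fraction, input and whole tissue (not prepared for mouse 155). Input and negative fraction of mouse 194 stand at 13.6 and 14.7 CPM of Cbr2, where the other mice have at most 1.81, and the 18 genes at 228 to 275 CPM in its 3 homogenate fractions.

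Other genes listed for border-associated macrophages were read beside the 8 in the Cx3cr1-NuTRAP positive fraction. Of 24 listed, 17 could be tested against the input, and 16 rose, 0 fell and 1 did not pass (23.3% of all genes rose), with a median of 2.46 beside 3.02 for the 8 genes and 0.00 (-0.0027) for all genes. Only 6 of the 17 exceeded 20 counts in every input, of which 5 rose, by 1.14 to 2.46, and the other 11 entered through the positive fraction alone. The largest log2 fold changes were those of Cd209f, a C-type lectin (3.63), Folr2, a folate receptor (3.61), Ms4a6d (3.59), Fcna, a ficolin (3.44), Msr1, scavenger receptor A (2.86), Ms4a6b (2.67), Ms4a6c (2.64) and Cd209a (2.63), with adjusted p values of at most 2.45e-05. Folr2 stood at 0.510 ± 0.15 CPM in the input and 6.28 ± 2.43 in the positive fraction (SD, n = 6 each). Cd38, an NAD-consuming enzyme, had -0.23 (adjusted p = 0.106) here and rose by 3.05 in the astrocyte pulldown against its negative fraction (adjusted p = 4.67e-05). Dab2, an endocytic adaptor, rose in both, by 1.14 and 1.39. In the astrocyte pulldown 26.8% of all genes tested rose and 24.8% fell. Folr2 had at most 3 counts in each astrocyte pulldown and a mean of 0.614 CPM in the negative fraction. The 24 listed genes summed to 112 ± 7.67 CPM in the astrocyte pulldown and 88.9 ± 3.57 in its negative fraction (SD, n = 3 each). This sum went the other way from that of the 8 genes. Of the MHC class II genes, which perivascular and dural macrophages can express, 4 of 5 were tested and 4 rose, by 2.07 to 2.59.

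Markers of other cells that share genes with the 8 were read beside them. Of the platelet list, Ppbp, a chemokine gene next to Pf4, was at 0 to 6 counts in the Cx3cr1-NuTRAP positive fractions, and Gp6 at 0 in all 6. Gp1ba had at most 4 counts there and Treml1 2 to 8. Gp9, a glycoprotein of the same list, had 0.288 ± 0.19 CPM in the input and 3.78 ± 2.14 in the positive fraction (SD, n = 6 each). Its fitted difference was 3.77 on the log2 scale, and it was tested through the positive fraction alone, while Itga2b and Gp1bb rose by 0.73 and 0.63. The 7 platelet genes summed to 19.9 to 40.9 CPM in these positive fractions and to 14.0 to 19.9 CPM in the inputs. The part of platelet RNA in the Pf4 result was not tested. Lymphatic endothelial genes, which accompany Lyve1, had 0 of 3 tested genes higher and 1 lower, at a summed 16.9 to 26.2 CPM in the positive fractions and 29.3 to 42.0 in the inputs. Of the blood endothelial genes 5 of 8 rose against the input, where 23.3% of all genes did, with a median of 0.61 and sums of 114 to 231 CPM against 117 to 134. Against whole tissue 5 of the 8 fell, with a median of -0.53, and their part in the Stab1 and Lyve1 results was not tested. Monocyte and neutrophil genes were too low to be tested, at summed levels of 1.48 to 6.09 CPM in the positive fractions and 2.02 to 5.38 in the inputs.

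Genes whose level ran most like that of the 8 were found by Pearson's r over libraries on the log2 CPM scale. Over all 29 libraries, only Stab1 had more than 20 counts in each, so the profile was that of Stab1 alone. The 5 genes closest to it, of 11488, were P2ry12 (r = 0.988), Inpp5d (0.987), Laptm5 (0.986), Tmem119 (0.986) and Unc93b1 (0.986), with a median of 0.979 for 8 microglial reference genes and 0.975 for 8 pan-macrophage genes. The libraries share the contrast between the pulldowns of the 2 lines. Over the 17 input, negative and whole-tissue libraries of the Cx3cr1-NuTRAP mice, centred on their group means, the profile was the mean of Mrc1 and Stab1. There Zfp799 (0.878), Ints2 (0.806), Plag1 (0.790), Clec5a (0.781) and Slc16a3 (0.774) ranked highest of 11922 genes. The medians were 0.24 for 11 microglial reference genes, 0.36 for 14 pan-macrophage genes, 0.55 for 4 erythrocyte genes, 0.19 for 7 fibroblast genes and -0.24 for 8 blood endothelial genes, in libraries that come in sets from the same mice and differ in depth.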

How the data were processed

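RNA was measured by sequencing of polyadenylated transcripts from translating ribosome affinity purification and whole tissue. Per the labels and the study's methods, the authors prepared strand-specific libraries, aligned the reads to mm10 in Strand NGS and deposited 1 matrix holding, for every library, raw values per gene and values normalised with DESeq. The raw values are estimated counts in the deposited file (81.4% of the nonzero values are not whole within 0.001), and they were rounded here before testing. The deposited log2 values, normalised by the authors, were not used. Levels are CPM of the unrounded counts by library totals, and per-kilobase values use the union of exons of GENCODE M21, on the same build. Gene positions are those of the file, and promoter windows are from RefSeq.

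Tests used edgeR 4.0.16 in R 4.3.3 (quasi-likelihood, TMM scaling, robust trended dispersion, two-sided, Benjamini-Hochberg over all genes tested). Genes entered a test when, in one of the groups compared or more, all libraries exceeded 20 counts, which follows the study's filter. The groups compared entered each fit, without the mouse as a block. Reference-scaled fits replaced TMM by the geometric mean of the 12 homeostatic microglia genes. DESeq2 1.42.0, other scalings and filters, all groups in one fit, each mouse left out and the mouse as a block were alternatives. The code was tested on simulated counts without a mouse effect, and the reference-scaled fits were not part of that test.

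The pairing by mouse comes from the animal numbers. Residuals of same-numbered libraries correlated above 0.1 in 3 of 3 mice for the Aldh1l1-NuTRAP fractions, in 5 of 6 for negative fraction and input, in 3 of 6 for positive fraction with input or with negative fraction, and in 0 of 5 with whole tissue. Totals per library set the precision, and intervals from counts cover counting error only. Members and lists were chosen with earlier results of these data known. Named genes are the 8 members, of the other border-associated macrophage genes the 8 with the largest change against input and any called in the opposite direction, the 3 reference genes highest in the positive fraction (1 of them is not reported here), the 5 most alike in each likeness ranking, and markers of other cells whose list moved with a result. Other genes were named after their values were seen.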

Additional observations from a re-analysis of the deposited data

Results flagged for a closer look

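Levels of the 8 genes were checked for a library far from the rest of its group, by the gap to the nearest library over the range of the group, in the 32 combinations of gene and Cx3cr1-NuTRAP group. Chance would flag about 1 in 20 independent groups, and 11 of the 32 were found. The 8 genes share the same libraries, so the 32 are not independent. Every flag was a library of mouse 194 or mouse 210. Mouse 194 was the highest positive fraction for Mrc1 (81.6 CPM), Cd163 (25.7), Lyve1 (19.6), Pf4 (21.7), F13a1 (51.4) and Cbr2 (36.8). It was also the highest for Cbr2 in the negative fraction (14.7 CPM) and in the input (13.6). Mouse 210, whose whole-tissue library was the shallowest, was the highest in whole tissue for Cd163 (4.23 CPM) and Ms4a7 (2.35), and in the input for Pf4 (0.775). The causes were not tested.

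The log2 ratio of positive to negative fraction differed between the lines for each of the 8 genes, by the interaction term of the edgeR fit. Of all genes tested, 29.9% had a higher and 25.5% a lower ratio in the Cx3cr1-NuTRAP mice. As given above, Lyve1, Pf4 and Ms4a7 entered through 1 group alone, and the call for Cbr2 depended on each Aldh1l1-NuTRAP mouse. The difference, Cx3cr1-NuTRAP minus Aldh1l1-NuTRAP, was 4.60 for Mrc1, 6.01 for Pf4, 4.10 for Cd163, 4.81 for Lyve1, 4.73 for F13a1, 4.50 for Stab1 and 3.49 for Cbr2. The fitted value for Ms4a7 was 7.99, which depends on the prior count because the gene had at most 1 count in the astrocyte pulldowns. Line, Cre driver and any difference in the interval after tamoxifen cannot be told apart in these differences.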

How the results depend on the processing

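Outside the reference-scaled fits, 237 of 242 counts of genes called stayed within a factor of 1.5, and 729 of 756 single-gene values kept their direction and their side of the threshold. Within that factor, genes higher against the negative fraction and in the interaction numbered 7 in place of 8 where the call for Cbr2 was lost, and 6 with a filter of 100 counts, as against input, whole tissue and the astrocyte pulldown, because fewer genes were then tested. Beyond it, the genes lower in the astrocyte pulldown, 2 in the main fit (24.8% of all genes), changed in number. They were 4 of the 8 then tested without a count filter (15.4%) and 1 of the 1 then tested with a filter of 100 counts (27.2%). They were 4 with the mouse as a block (33.8%) and 1 to 3 when each mouse was left out (12.0% to 34.3%). Genes lower in negative fraction than in input numbered 1 with the block (19.5% of all genes) in place of 0 (4.70%). The block changed no other count outside the reference scale. Signs turned only for values near 0 or for Cbr2: with a mouse left out, F13a1 (-0.18 to 0.065) between negative fraction and input, Mrc1 (-0.054 to 0.15) and F13a1 (-0.014 to 0.25) between input and whole tissue (-0.0056 for F13a1 with the block), and Stab1 (-0.11 to 0.025), Cbr2 (-0.28 to 1.47) and F13a1 (-0.054 to 0.44) between the negative fractions.

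On the reference scale against input, genes lower numbered 3 without Sparc and Sall1, 3 with the pan-macrophage list, 0 with the sorted-cell list and 0 to 1 with a mouse left out, in place of 1, and genes higher numbered 6 with the sorted-cell list in place of 1. Against the negative fraction, 2, 2 and 0 were lower and 7 higher with the sorted-cell list, in place of 0. Without Sparc and Sall1, signs turned for Lyve1 (-0.39), F13a1 (-0.34) and Ms4a7 (-0.29) against input and for Lyve1 (-0.30) and F13a1 (-0.36) against the negative fraction. With the pan-macrophage list they turned for Lyve1 (-0.38), F13a1 (-0.35) and Ms4a7 (-0.28), and for Lyve1 (-0.29) and F13a1 (-0.34). With the sorted-cell list they turned for Mrc1 (0.48), Cd163 (0.069) and Stab1 (0.43), for Mrc1 (0.61), Cd163 (0.58) and Stab1 (0.57), and in the astrocyte line for Mrc1 (-0.51), F13a1 (-0.56), Cbr2 (-0.33) and Stab1 (-0.44). The block gave Lyve1 -0.025 against input and F13a1 -0.058 in the astrocyte line. Leaving out a mouse gave Lyve1 -0.079 to 0.12, F13a1 -0.024 to 0.15, Cbr2 -1.11 to 0.36 and Ms4a7 -0.031 to 0.21 against input, Mrc1 -0.15 to 0.020, Cd163 -0.24 to 0.10 and Cbr2 -1.28 to 0.19 against the negative fraction, and F13a1 -0.68 to 0.68, Cbr2 -0.28 to 0.76 and Mrc1 -0.26 to 0.30 in the astrocyte line. Apart from the reference itself, the cause was not tested.

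Library totals alone moved the median of all genes by -0.35 in the astrocyte pulldown against its negative fraction (2436 higher and 4824 lower in place of 3569 and 3299), by 0.31 between the pulldowns (6312 and 2875 in place of 4530 and 4188) and by 0.28 for the interaction (5719 and 2600 in place of 4179 and 3572), and the calls for the 8 genes stayed except that Cbr2 also fell in the astrocyte pulldown (-1.64). Over all genes, 194 were higher and 646 lower between negative fraction and input, against 766 and 1290 by DESeq2, 2431 and 2684 with the block, 1774 and 2041 without mouse 155, 3 and 0 without mouse 194, and 0 and 0 without any one of mice 192, 209, 210 and 277. Against the negative fraction 1759 genes rose and 1593 fell in the microglial pulldown. These became 1177 and 570 without mouse 192, 1151 and 868 without mouse 194 and 1371 and 866 without mouse 277. Between the astrocyte fractions 3569 were higher and 3299 lower, and 1977 and 1685 without mouse 293 or 1987 and 1600 without mouse 294. Between input and whole tissue, 2217 and 1927 became 1270 and 1456 without mouse 192, 1359 and 1190 without mouse 194 and 1322 and 1265 without mouse 209, and a fit to every group at once gave 1121 and 1337. Between the negative fractions 17 were higher and 17 lower, against 261 and 256 by DESeq2. With a mouse left out these counts ran from 0 and 0 (mouse 293) to 72 and 61 (mouse 290). TMM-adjusted CPM moved 3 of 48 group levels by more than 1 SD, those of Mrc1 (1.52 CPM), Lyve1 (0.377) and Stab1 (6.75) in the astrocyte pulldown. Depth limits Lyve1, Pf4, Cbr2 and Ms4a7 outside the Cx3cr1-NuTRAP positive fraction, where counts were too few for a test in most comparisons.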
